A study of Danio rerio with 8 samples.

Results

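The Hox genes of zebrafish were followed in cells sorted for a pdgfrb reporter, with and without a spinal cord lesion. Members were all genes of the count table whose zebrafish symbol is hox followed by a cluster letter a to d and a number, with antisense and clone names left out. This gave 48 of the 31901 genes in the table. In the first group, lesioned, the spinal cord of the larvae had been injured mechanically and the cells were collected 1 day later. The second group, unlesioned, had no such injury, and each group has 4 libraries. All larvae were 4 days old and carried the transgenes BAC(pdgfrb:Gal4ff)ncv24;UAS:GFP, in which the pdgfrb promoter drives Gal4ff and Gal4ff in turn switches on GFP. The labels describe the GFP-positive cells as myoseptal (in the connective tissue between muscle segments) and perivascular, and they give neither the part of the body that was dissociated nor the number of larvae per library. Each p-value thus rests on the spread between libraries, which may be technical.

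Hox genes encode homeodomain transcription factors that give cells their position along the head-to-tail axis. They lie in clusters, and the order of the genes in a cluster follows the order of their expression domains, with low paralog numbers anterior and high ones posterior. Connective tissue and mesoderm cells keep part of this code long after the axis has formed, and the posterior genes of the A and D clusters also pattern paired fins and limbs. The teleost genome duplication left zebrafish with pairs of clusters, named with a second letter a or b. Here paralog groups 1 to 3 are called anterior, 4 to 8 middle and 9 to 13 posterior.

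The 48 genes fall into 7 clusters on the GRCz11 build. These are hoxaa on chromosome 19 (19729506 to 19787752, 6 genes), hoxab on chromosome 16 (20895904 to 20929183, 5 genes) and hoxba on chromosome 3 (23654233 to 23771945, 11 genes). The others are hoxbb on chromosome 12 (27117609 to 27142834, 4 genes), hoxca on chromosome 23 (35969228 to 36190988, 11 genes), hoxcb on chromosome 11 (2156430 to 2204754, 4 genes) and hoxda on chromosome 9 (1937049 to 1990323, 7 genes). The start given for hoxca is that of the hoxc10a gene model. In hoxaa, hoxbb and hoxca the order of members by start position differed from that in the RefSeq gene annotation. The gene hoxa4a was not analysed here. Counting ignored strand, and 12 members share exon bases with another annotated gene, 7 of them more than 10% of their length. The gene models of hoxa3a, hoxb3a, hoxc3a, hoxc10a and hoxd3a run across at least 1 other member, so these 5 are less certain. So are members that share many exon bases, up to 55.3% for hoxb1a and 51.1% for hoxc10a. The share was 30.3% for hoxa5a, 25.7% for hoxa9a and 24.6% for hoxd4a, but 5.69% for hoxa3a and 3.39% for hoxc3a.

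Total counts per library were 20811678 to 23754652 in lesioned and 19552807 to 25358885 in unlesioned libraries. The reporter's own gene pdgfrb averaged 194 CPM in lesioned and 212 CPM in unlesioned libraries (log2 fold change -0.13 ± 0.27 SE, edgeR adjusted p = 0.924). CPM are counts scaled to the library total after TMM adjustment. Summed fibroblast markers (17 of 17 genes found) reached 20572 to 30570 CPM in lesioned and 17633 to 32447 CPM in unlesioned libraries. At an unadjusted edgeR p under 0.05, 4 of the 17 were higher and 4 lower (6.07% and 5.48% of all genes). The higher ones were col12a1a, col12a1b, scxa and xirp2a, and the lower ones tnmd, lum, tgfbi and col6a2. Summed mural cell markers (16 of 16) reached 4504 to 7936 CPM in lesioned and 7970 to 23274 CPM in unlesioned libraries, without overlap but by a narrow margin. Most of that sum came from acta2, with a mean of 3612 CPM in lesioned and 9007 CPM in unlesioned libraries. At an unadjusted edgeR p under 0.05, 6 of the 16 were lower and 1 higher, cd248b (all genes 5.48% and 6.07%). The log2 fold changes of abcc9, kcnj8 and cspg4 were -0.32, -0.29 and 0.25. Neuronal markers summed to 31.4 to 42.2 CPM in lesioned and 24.8 to 91.4 CPM in unlesioned libraries, skeletal muscle markers to 791 to 5744 CPM in lesioned and 1436 to 3698 CPM in unlesioned ones, and epidermal markers to 465 to 3670 CPM in lesioned and 204 to 5035 CPM in unlesioned ones. Endothelial markers summed to 42.1 to 72.8 CPM in lesioned and 33.5 to 44.9 CPM in unlesioned libraries, blood markers to 6.08 to 43.7 CPM in lesioned and 8.87 to 93.4 CPM in unlesioned ones, and notochord markers to 402 to 545 CPM in lesioned and 405 to 629 CPM in unlesioned ones. Most of the notochord sum came from ntd5 (mean 262 CPM in lesioned, 311 CPM in unlesioned libraries) and cav1 (84.3 CPM in lesioned, 131 CPM in unlesioned libraries). Neural crest and pigment markers summed to 43.7 to 113 CPM in lesioned and 121 to 354 CPM in unlesioned libraries, again without overlap. Without TMM factors (1.09 in lesioned 1, 0.822 in unlesioned 3) the groups overlapped for this sum and for the mural sum. Most of the crest and pigment sum came from pnp4a (68.3 CPM in lesioned, 192 CPM in unlesioned libraries). The crest genes sox10 and foxd3 averaged 2.37 and 3.03 CPM in lesioned libraries, against 0.0351 and 0.351 CPM in unlesioned libraries. Neither was tested, and each lesioned mean rested mostly on 1 library, lesioned 1 for sox10 (7.05 CPM) and lesioned 3 for foxd3 (9.09 CPM). Also low, crestin and mitfa went the other way, at 0.111 and 0.216 CPM in lesioned and 0.180 and 0.849 CPM in unlesioned libraries. The part of these cell types in the Hox values was not tested, and in sorted bulk RNA fewer cells of a type and less RNA per cell cannot be told apart. Libraries 3 and 4 of both groups carried 64 to 158 counts on synthetic spike-in RNAs, against 0 to 3 in libraries 1 and 2, so values are also given within these sets. Unlesioned 3 stood apart on the first principal component of all genes (171, against -63.4 to 46.0 in the other libraries).

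By level, the Hox transcripts of the sorted cells were mostly posterior, and posterior genes are 23 of the 48 members. Nearly every Hox gene was detected: 46, 47, 45 and 45 of 48 had at least 1 count in lesioned 1 to 4, and 45, 46, 44 and 45 in unlesioned 1 to 4. Levels are given as RPKM, CPM divided by the exon length in kilobases, so that genes can be set beside each other. Posterior members held 78.8 ± 2.82% of the summed Hox RPKM in lesioned and 81.5 ± 1.71% in unlesioned libraries (SD, n = 4 each). Middle members held 13.3 ± 1.97% in lesioned and 8.31 ± 2.86% in unlesioned libraries, and anterior members 7.95 ± 1.34% in lesioned and 10.2 ± 1.44% in unlesioned libraries. As a whole the family took 0.110 ± 0.00795% of all counts in lesioned and 0.128 ± 0.0226% in unlesioned libraries.

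**Figure D1:**
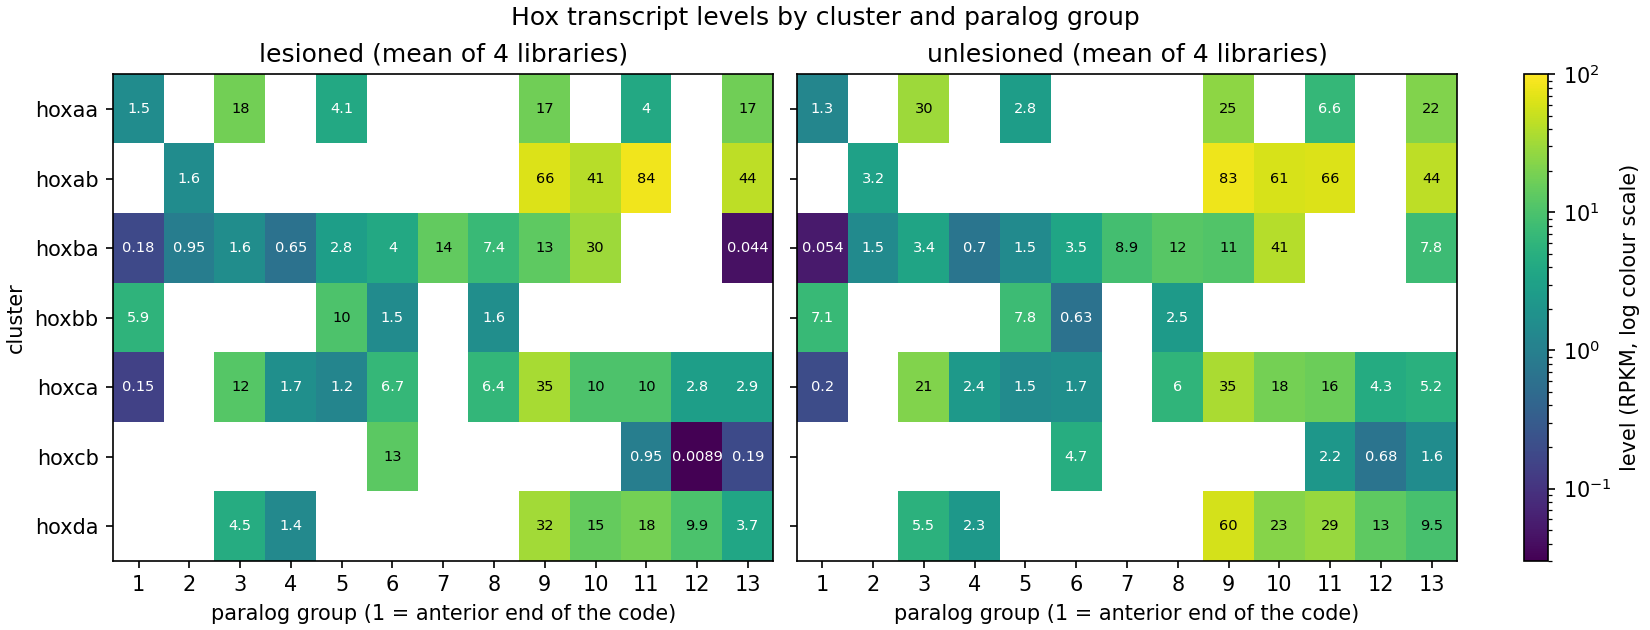
Mean level (RPKM, log colour scale) of each of the 48 Hox genes, by cluster (rows) and paralog group (columns), in lesioned (left) and unlesioned libraries (right), mean of 4 libraries each. The brightest cells are posterior genes of hoxab, led by hoxa11b (84 RPKM) in lesioned and hoxa9b (83 RPKM) in unlesioned libraries, while groups 1, 2 and 4 stay at or under 7.1 RPKM in both panels; white cells hold no member.

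The 5 members of the hoxab cluster made up 40.7 ± 3.66% of the summed Hox RPKM in lesioned and 35.9 ± 2.76% in unlesioned libraries, the largest share of any cluster in both groups. The gene hoxa11b, whose mouse counterpart patterns the middle segment of the limb, had 86.9, 76.3, 55.9 and 117 RPKM in lesioned 1 to 4, against 83.9, 94.3, 26.8 and 57.5 RPKM in unlesioned 1 to 4. The group 9 gene hoxa9b had 61.8, 66.0, 86.7 and 49.9 RPKM in lesioned 1 to 4, against 76.0, 63.1, 99.9 and 91.5 RPKM in unlesioned 1 to 4. One of these genes ranked first in every library, hoxa11b in 5 of 8 and hoxa9b in 3 of 8, and the groups overlapped for both. The group 13 gene hoxa13b, which acts in the distal fin in zebrafish, had 27.8, 36.1, 31.5 and 80.4 RPKM in lesioned 1 to 4, against 60.4, 41.1, 29.9 and 45.8 RPKM in unlesioned 1 to 4. Its groups also overlapped, and lesioned 4 was the highest library of all. With hoxa10b, hoxd9a and hoxb10a, these genes are the 6 most abundant members, and together they held 51.1 ± 4.05% of the summed Hox RPKM in lesioned and 49.5 ± 3.84% in unlesioned libraries. In the order of mean RPKM over all libraries, hoxa11b (74.8) and hoxa9b (74.4) lay closer together than their spread between libraries, followed by hoxa10b (51.2), hoxd9a (45.8), hoxa13b (44.1) and hoxb10a (35.4). The next genes in that order were hoxc9a (35.1 RPKM), hoxa3a (23.9 RPKM), hoxd11a (23.5 RPKM), hoxa9a (21.4 RPKM), hoxa13a (19.3 RPKM) and hoxd10a (18.8 RPKM), and hoxa3a was the only anterior gene among these 12.

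The duplicate copies of a gene were often used unequally. Of 11 pairs with both copies in the table, the b copy had the higher RPKM in all 8 libraries for hoxa9, hoxa11, hoxa13 and hoxb1, and the a copy in all 8 for hoxb6, hoxc11 and hoxc12. The widest gap among the abundant pairs was in group 11, with a mean over all libraries of 74.8 RPKM for hoxa11b and 5.33 RPKM for hoxa11a, a ratio of 14.03. In the C clusters it ran the other way, with 13.3 RPKM for hoxc11a and 1.57 RPKM for hoxc11b. The other pairs with a constant order had 74.4 RPKM for hoxa9b and 21.4 RPKM for hoxa9a, 44.1 RPKM for hoxa13b and 19.3 RPKM for hoxa13a, and 6.49 RPKM for hoxb1b and 0.118 RPKM for hoxb1a. For hoxb6 and hoxc12 the a copies had 3.77 and 3.59 RPKM, against 1.06 RPKM for hoxb6b and 0.346 RPKM for hoxc12b. In unlesioned 3 hoxc12b had more counts than hoxc12a (87 against 74). Its lower RPKM there rests on its longer exon length (2426 against 825 bases). In the remaining 4 pairs (hoxb5, hoxb8, hoxc6 and hoxc13) the order differed between libraries. Reads of 2 copies with near-identical stretches could be split by the alignment, which was not tested here. In addition, hoxb1a shares 55.3% of its exon bases with hoxb3a, and hoxa9a 25.7% with another annotated gene. The part of this in their low counts was not tested either.

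After the lesion the summed Hox level was lower on the TMM scale, and so were the sums of anterior and of posterior members. Of the single paralog groups, only 3, 9 and 10 were lower without overlap, while the outermost groups 1 and 13 overlapped. All 48 genes together had 580 ± 39.2 RPKM in lesioned and 718 ± 64.8 RPKM in unlesioned libraries, without overlap. This gap depends on the scaling, since as a share of all counts, without TMM factors or division by length, the libraries overlapped (0.1002 to 0.120% in lesioned, 0.0979 to 0.151% in unlesioned libraries, with unlesioned 3 the lowest). Posterior members summed to 429, 422, 465 and 515 RPKM in lesioned 1 to 4, against 592, 661, 518 and 572 RPKM in unlesioned 1 to 4. Anterior members summed to 50.6, 47.0, 47.2 and 38.1 RPKM in lesioned 1 to 4, against 69.5, 89.4, 54.8 and 80.7 RPKM in unlesioned 1 to 4. For both regions every lesioned library lay below every unlesioned one, for the posterior sum by a narrow margin (lesioned 4 against unlesioned 3). Without TMM factors (1.11 in lesioned 4, 0.822 in unlesioned 3) the groups overlapped for both regions. Middle members summed to 68.9, 76.2, 94.4 and 67.9 RPKM in lesioned 1 to 4, against 51.2, 58.2, 82.3 and 44.0 RPKM in unlesioned 1 to 4, and these groups overlapped. In each of the 4 pairs of same-numbered libraries the middle sum was higher in the lesioned one. The mean log2 difference between lesioned and unlesioned libraries was -0.36 for posterior, -0.67 for anterior and 0.41 for middle sums. Within libraries 1 and 2 it was -0.56, -0.69 and 0.41 in the same order of regions, and within libraries 3 and 4 it was -0.15, -0.65 and 0.41. Scaled by library size alone the posterior difference was -0.19, and without the 5 members whose gene models run across another member the anterior difference was -0.37. These sums over the members carry no test.

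Along the single paralog groups, group 9 had 163 ± 15.2 RPKM in lesioned and 214 ± 12.7 RPKM in unlesioned libraries, and group 10 had 96.3 ± 6.94 RPKM in lesioned and 143 ± 13.4 RPKM in unlesioned libraries (SD, n = 4 each). Group 3 had 35.5 ± 6.18 RPKM in lesioned and 60.3 ± 14.02 RPKM in unlesioned libraries. In these 3 groups every lesioned library was below every unlesioned one. Without TMM factors groups 3 and 9 overlapped, and group 10 stayed apart. Group 5 was higher in lesioned libraries, with 18.4 ± 1.41 RPKM in lesioned and 13.5 ± 2.21 RPKM in unlesioned libraries and no overlap. Group 6 had 25.2 ± 9.57 RPKM in lesioned and 10.6 ± 5.22 RPKM in unlesioned libraries, with overlap because lesioned 4 had 12.7 RPKM. Groups 11 (117 ± 25.3 RPKM in lesioned, 120 ± 38.4 RPKM in unlesioned libraries) and 13 (67.7 ± 23.3 RPKM in lesioned, 90.01 ± 18.7 RPKM in unlesioned libraries) overlapped widely, and groups 1, 4, 7, 8 and 12 overlapped too. Group 2 had 3.08, 2.86, 2.05 and 2.05 RPKM in lesioned 1 to 4, against 5.70, 5.70, 4.79 and 2.28 RPKM in unlesioned 1 to 4, with only unlesioned 4 inside the lesioned range. Between same-numbered libraries, groups 6 and 7 were higher in the lesioned one in 4 of 4 pairs and group 2 was lower in 4 of 4.

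**Figure D2:**
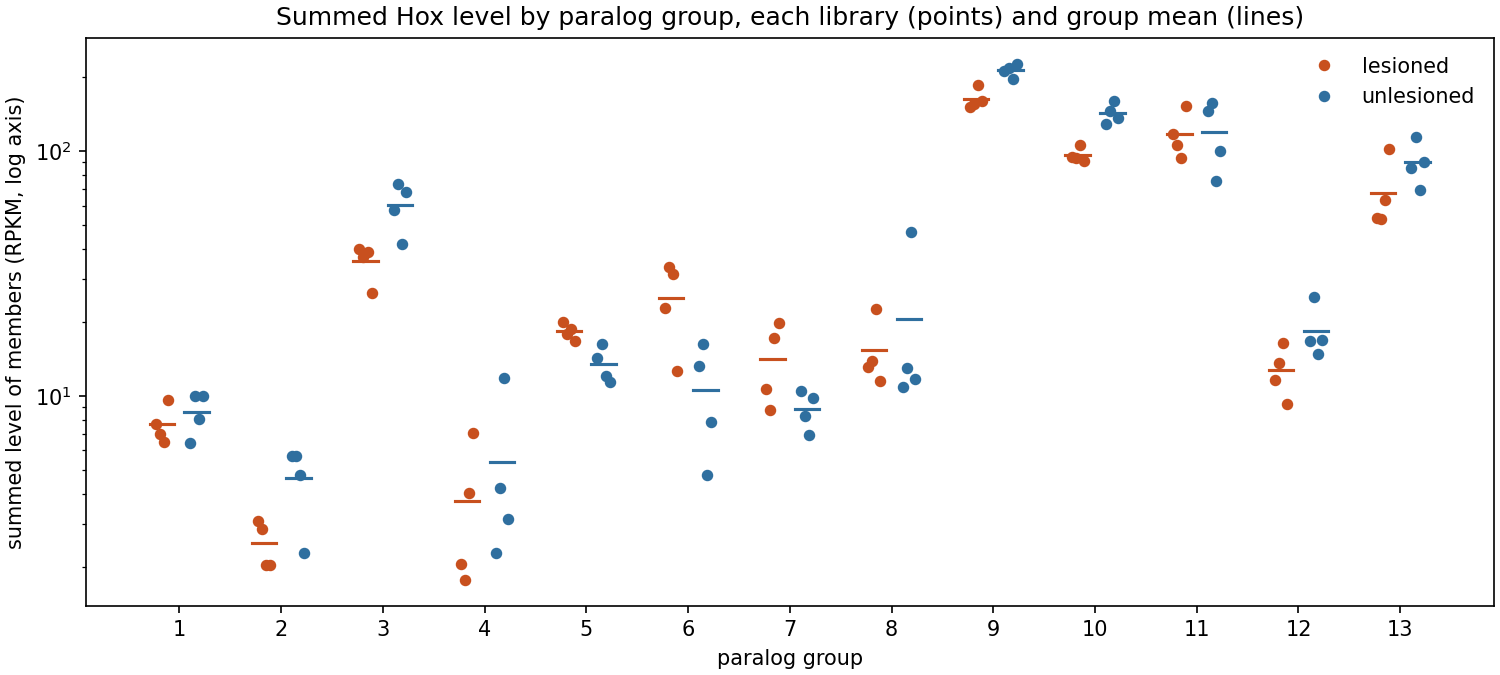
Summed level (RPKM, log axis) of the members of each paralog group from 1 to 13; each point is a library, lesioned left and unlesioned right, and lines are the means of 4 libraries. Groups 3, 9 and 10 lie lower in all lesioned libraries and group 5 higher, while the other groups overlap.

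The mean position of the code overlapped between groups, and the sign of its difference depended on the library and the weighting. The paralog number, averaged over members with their RPKM as weights, was 9.11, 9.08, 9.08 and 9.63 in lesioned 1 to 4, against 9.34, 9.33, 9.16 and 9.18 in unlesioned 1 to 4. It averaged 9.23 ± 0.268 in lesioned and 9.25 ± 0.0955 in unlesioned libraries. Lesioned 1 to 3 lay below every unlesioned library and lesioned 4 above every one. Within libraries 1 and 2 the lesioned minus unlesioned difference was -0.24, and within libraries 3 and 4 it was 0.19. With each member of at least 10 counts counted once, whatever its level, the difference was -0.36. Without lesioned 4 it was -0.16, and with CPM in place of RPKM as weights it was 0.23.

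No single Hox gene passed the test. Of the 48, 45 had enough counts to be tested, all but hoxb1a, hoxb13a and hoxc12b, and edgeR called 0 of them at an adjusted p under 0.05, where it called 0.019% of the 15759 genes tested. At an unadjusted p under 0.05, 10 Hox genes (22.2%) were lower and 0 higher in lesioned libraries, against 5.48% of all genes lower and 6.07% higher. The 10 were hoxa3a, hoxb3a and hoxc3a among the anterior genes and hoxd9a, hoxa10b, hoxc10a, hoxd10a, hoxc11b, hoxd11a and hoxd13a among the posterior ones. Log2 fold changes were negative for 33 Hox genes (73.3%) and for 52.3% of all genes, with a median of -0.45 for the Hox genes and -0.04 for all genes. Scaling by library size alone shifted the median of all genes to 0.12 and that of the Hox genes to -0.31, and 4 members were lower at an unadjusted p under 0.05 (all genes 3.33%). The number of such members was 11 within libraries 1 and 2 (all genes 7.24%), where 1 was higher (all genes 7.37%), and 0 within libraries 3 and 4 (all genes 2.03%). It was 6 without lesioned 1 (all genes 4.19%), 4 without lesioned 2 (4.14%), 5 without lesioned 4 (4.64%) and 6 without unlesioned 2 (5.01%).

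The signs followed the regions. Of 21 posterior genes tested 19 had a negative log2 fold change (median -0.62), and of 9 anterior genes 8 (median -0.62). Of 15 middle genes 6 were negative and 9 positive (median 0.20), and none had an unadjusted p under 0.05. Lesioned and unlesioned libraries did not overlap for 6 members that were lower in lesioned libraries (13.3%, against 3.92% of all genes) and for 1 that was higher (2.22%, against 5.32% of all genes). The 6 were hoxc3a, hoxd9a, hoxa10b, hoxb10a, hoxd10a and hoxc11b, and the 1 was hoxc6a. Of these 6, hoxc3a, hoxd9a, hoxb10a and hoxd10a overlapped when counts were divided by the library total without TMM factors. The difference between regions was not tested.

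**Figure D3:**
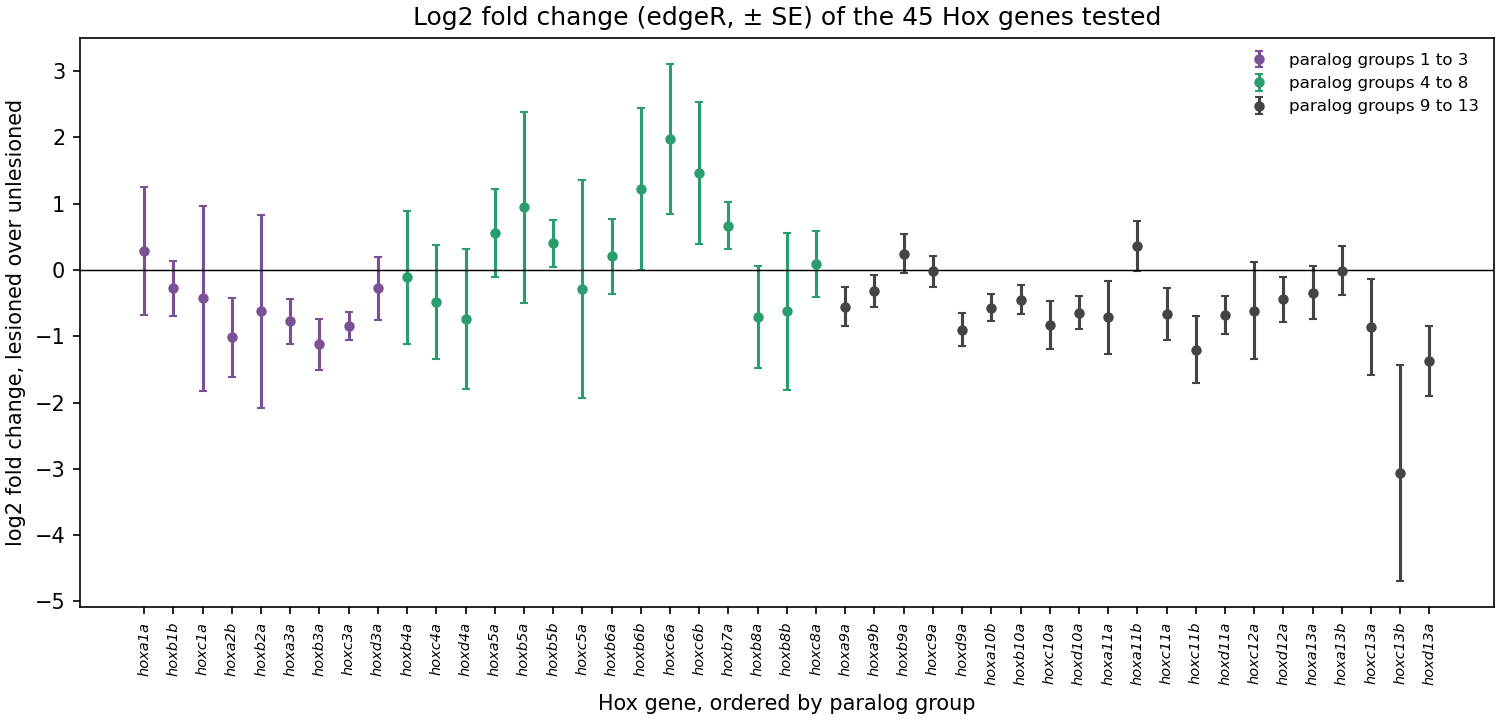
Log2 fold change (lesioned over unlesioned, edgeR, bars ± SE) of the 45 Hox genes tested, ordered by paralog group and coloured by region. Anterior and posterior genes lie mostly below 0 with medians of -0.62, and middle genes spread around a median of 0.20. Genes whose counts varied widely between libraries, such as hoxc13b, have wide bars.

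Among the posterior genes, 3 members of group 10 and 1 of group 9 did not overlap between groups on the TMM scale. Without TMM factors only hoxa10b of these stayed apart. Group 10 genes suppress rib formation in mice, and group 9 genes act in the trunk and at the base of limbs. The gene hoxd9a had 27.4, 25.2, 35.4 and 39.8 RPKM in lesioned 1 to 4, against 58.8, 64.4, 43.2 and 72.3 RPKM in unlesioned 1 to 4 (log2 fold change -0.90 ± 0.25 SE, edgeR adjusted p = 0.212). Its groups did not overlap, though unlesioned 3 lay near lesioned 4. The gene hoxa10b had 38.3, 36.9, 52.7 and 37.1 RPKM in lesioned 1 to 4, against 54.6, 62.1, 70.2 and 57.8 RPKM in unlesioned 1 to 4 (log2 fold change -0.57 ± 0.21 SE, edgeR adjusted p = 0.317). Lesioned 3 stood above the other lesioned libraries but below every unlesioned one. The gene hoxd10a had 13.6, 19.0, 13.4 and 12.8 RPKM in lesioned 1 to 4, against 22.0, 19.9, 27.4 and 22.7 RPKM in unlesioned 1 to 4 (log2 fold change -0.64 ± 0.25 SE, edgeR adjusted p = 0.346). Here lesioned 2 came close to the lowest unlesioned library without reaching it. The gene hoxb10a had 28.5, 28.3, 32.6 and 30.7 RPKM in lesioned 1 to 4, against 33.0, 36.2, 46.6 and 47.7 RPKM in unlesioned 1 to 4 (log2 fold change -0.45 ± 0.22 SE, edgeR adjusted p = 0.481). Its lesioned libraries were tightly grouped just under unlesioned 1. By contrast hoxa9b had a log2 fold change of -0.32 ± 0.24 (-0.20 without lesioned 4), hoxc9a of -0.02 ± 0.24 and hoxb9a of 0.25 ± 0.29. The other members were hoxa9a, at -0.56 ± 0.29, and hoxc10a, at -0.83 ± 0.36, and both overlapped between groups.

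Groups 11 and 13 were more uneven. The gene hoxd11a, which acts with the A cluster group 11 gene in mouse limbs, had 18.4, 15, 24.2 and 14.6 RPKM in lesioned 1 to 4, against 33.9, 34.9, 25.7 and 21.2 RPKM in unlesioned 1 to 4 (log2 fold change -0.68 ± 0.28 SE, edgeR adjusted p = 0.382). Only lesioned 3 and unlesioned 4 crossed. The weakly expressed hoxc11b had 0.923, 0.533, 1.66 and 0.690 RPKM in lesioned 1 to 4, against 1.78, 2.64, 2.41 and 1.93 RPKM in unlesioned 1 to 4 (log2 fold change -1.20 ± 0.50 SE, edgeR adjusted p = 0.384). The groups did not overlap, with lesioned 3 just below unlesioned 1. The gene hoxd13a, which patterns the digits in mice and the distal fin in zebrafish, had 4.99, 2.55, 4.29 and 2.89 RPKM in lesioned 1 to 4, against 4.48, 6.60, 19.9 and 7.19 RPKM in unlesioned 1 to 4 (log2 fold change -1.37 ± 0.53 SE, edgeR adjusted p = 0.340). Much of that difference lay in unlesioned 3, and without this library the log2 fold change was -0.73. The log2 fold change of hoxa11b was 0.36 ± 0.38 (edgeR adjusted p = 0.806), and -0.13 in libraries 1 and 2 against 1.105 in libraries 3 and 4. It was 0.16 without lesioned 4, 0.58 without unlesioned 2 and 0.10 without unlesioned 3. That of hoxa13b was -0.01 ± 0.37 (edgeR adjusted p = 0.998), -0.67 in libraries 1 and 2 against 0.64 in libraries 3 and 4, and 0.15 when scaled by library size alone.

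**Figure D4:**
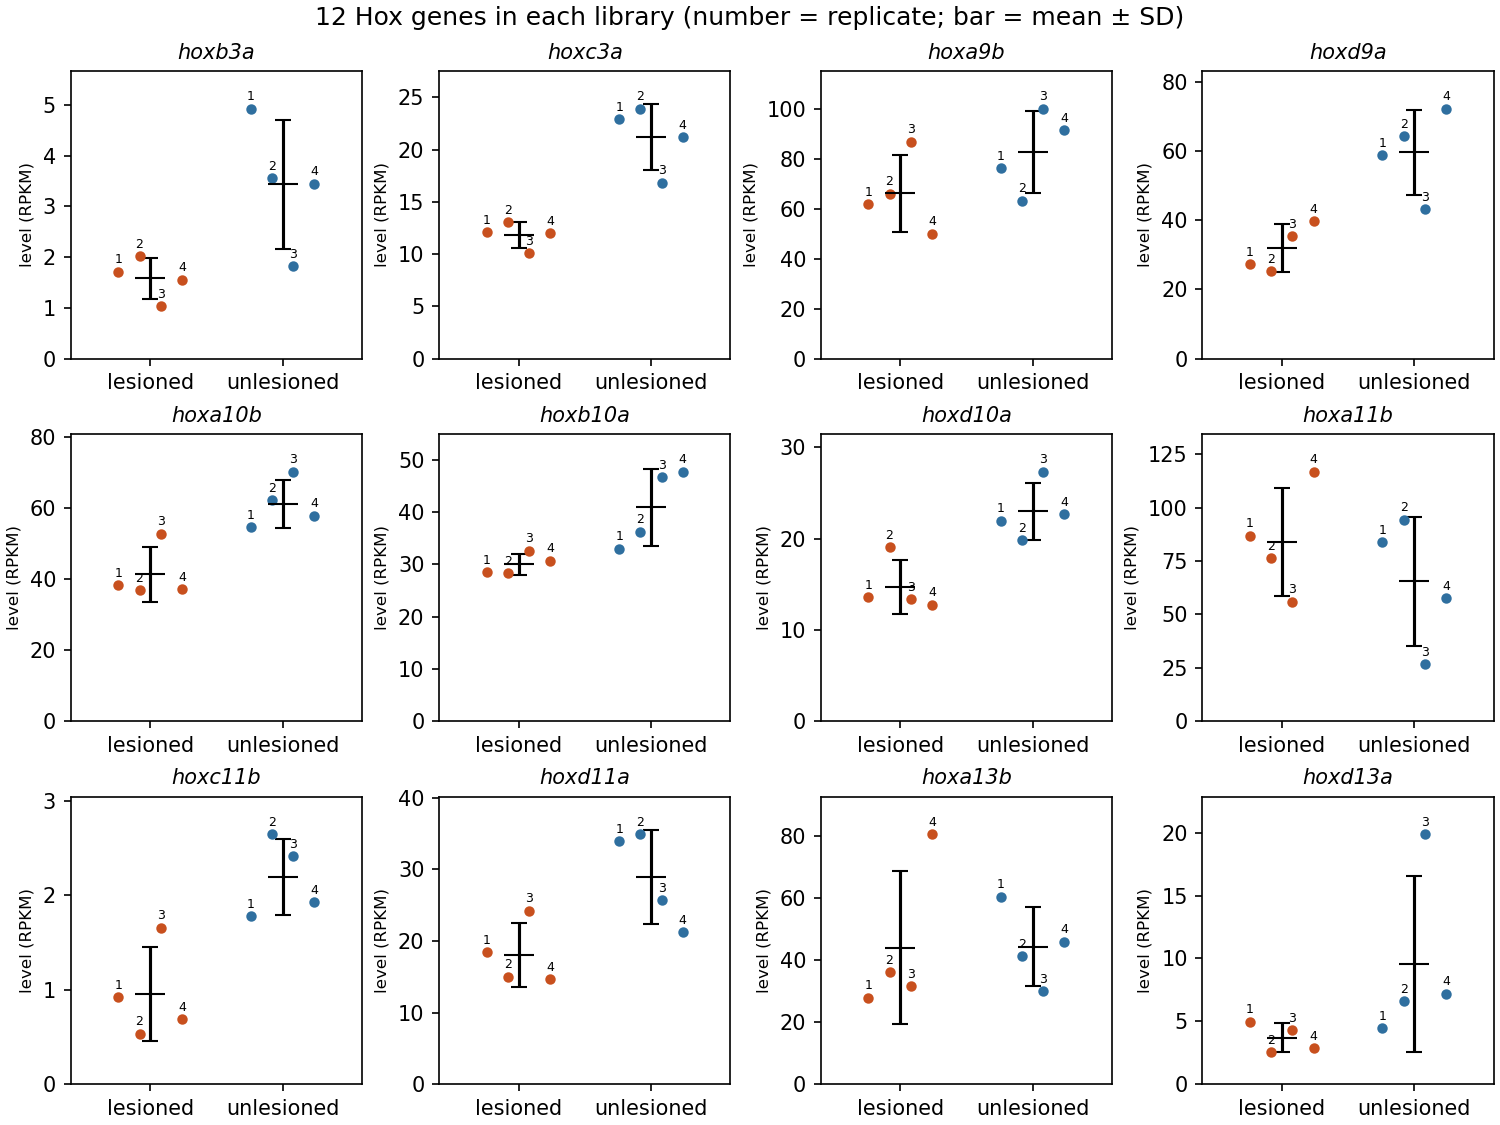
Level (RPKM) in each library of the 12 Hox genes with the highest levels or the lowest p, lesioned left and unlesioned right; numbers are replicates, and bars are the mean ± SD of 4 libraries. The genes hoxc3a, hoxd9a, hoxa10b, hoxb10a, hoxd10a and hoxc11b do not overlap between groups, and the other 6 do.

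The summed level of the hoxda cluster was lower in lesioned libraries. Its 7 members summed to 76.6, 77.4, 97.2 and 85.9 RPKM in lesioned 1 to 4, against 137, 150, 134 and 148 RPKM in unlesioned 1 to 4. The groups were far apart, and the cluster's share of the summed Hox RPKM, 14.5 ± 1.02% in lesioned and 19.9 ± 1.22% in unlesioned libraries, did not overlap either. All 7 genes had a negative log2 fold change, from -0.28 ± 0.48 for hoxd3a and -0.44 ± 0.34 for hoxd12a to -1.37 ± 0.53 for hoxd13a. For some genes that sign rested on 1 library. The gene hoxd3a had 10.9 RPKM in unlesioned 4 but 2.24 to 4.72 RPKM in the other unlesioned libraries, against 3.07 to 5.75 RPKM in lesioned ones, and hoxd4a was high in unlesioned 3 alone, as given further on. The hoxab cluster, the most abundant, had 237 ± 33.2 RPKM in lesioned and 257 ± 19.8 RPKM in unlesioned libraries, with overlap. The hoxaa (61.5 ± 10.8 RPKM in lesioned, 87.8 ± 29.4 RPKM in unlesioned libraries), hoxba (74.9 ± 5.85 RPKM in lesioned, 91.4 ± 12.4 RPKM in unlesioned libraries) and hoxca clusters (89.1 ± 10.3 RPKM in lesioned, 113 ± 18.5 RPKM in unlesioned libraries) also overlapped. So did hoxbb (19.3 ± 0.870 RPKM in lesioned, 18.1 ± 3.08 RPKM in unlesioned libraries) and hoxcb (14.1 ± 7.28 RPKM in lesioned, 9.16 ± 3.80 RPKM in unlesioned libraries).

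Among the anterior genes the group 3 members carried most of the level and of the difference. Group 3 genes act in the hindbrain, pharyngeal arches and neck in mice. The gene hoxc3a had 12.1, 13.02, 10.1 and 11.97 RPKM in lesioned 1 to 4, against 22.9, 23.9, 16.8 and 21.2 RPKM in unlesioned 1 to 4 (log2 fold change -0.84 ± 0.21 SE, edgeR adjusted p = 0.172). On the TMM scale the groups were apart, and this was the lowest p of any Hox gene. Without TMM factors lesioned 2 (1323 of 22183392 counts) lay above unlesioned 3 (1459 of 25358885 counts). The gene hoxb3a had 1.71, 2.02, 1.03 and 1.55 RPKM in lesioned 1 to 4, against 4.93, 3.56, 1.82 and 3.45 RPKM in unlesioned 1 to 4 (log2 fold change -1.12 ± 0.38 SE, edgeR adjusted p = 0.279). Only unlesioned 3 reached into the lesioned range. The gene hoxa3a averaged 17.6 ± 6.56 RPKM in lesioned and 30.2 ± 9.34 RPKM in unlesioned libraries (log2 fold change -0.78 ± 0.34 SE, edgeR adjusted p = 0.408), and hoxd3a 4.53 ± 1.13 RPKM in lesioned and 5.50 ± 3.78 RPKM in unlesioned libraries. The models of these 4 genes run across other members. That of hoxc3a extends from 36087219 to 36149371 on chromosome 23 and spans hoxc9a, hoxc8a, hoxc6a, hoxc5a and hoxc4a. The exon bases shared with any annotated gene were 3.39% of hoxc3a, 5.69% of hoxa3a, 20% of hoxb3a and 17.7% of hoxd3a.

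By other tools, limma voom called 0 Hox genes. At an unadjusted p under 0.05 it had 8 of the 45 lower and 1 higher, against 924 lower and 1215 higher of all 15759 genes. DESeq2 called 2 lower among the 25 Hox genes to which it gave an adjusted p. Of all genes with an adjusted p it called 3% lower. These were hoxc3a (adjusted p = 0.00860, range over the settings tried 0.00860 to 0.900) and hoxd9a (adjusted p = 0.0385, range 0.0385 to 0.947). Group 1 and 2 genes were low throughout. The gene hoxb1b, a hindbrain patterning gene, had 5.86 ± 2.46 RPKM in lesioned and 7.11 ± 1.32 RPKM in unlesioned libraries, hoxa2b 1.56 ± 0.400 RPKM in lesioned and 3.15 ± 1.56 RPKM in unlesioned libraries, and hoxa1a, hoxb2a, hoxb1a and hoxc1a averaged 1.53 RPKM or less in either group.

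The middle genes were mixed. Mean sums of groups 5, 6 and 7 were higher in lesioned libraries, but only group 5 did not overlap, and those of groups 4 and 8 were not higher. Within group 5, hoxc5a had a log2 fold change of -0.29 ± 1.65 SE, while hoxa5a, hoxb5a and hoxb5b were positive. The gene hoxc6a had 4.32, 5.46, 12.2 and 4.90 RPKM in lesioned 1 to 4, against 1.68, 3.80, 1.33 and 0 RPKM in unlesioned 1 to 4 (log2 fold change 1.98 ± 1.13 SE, edgeR adjusted p = 0.567). The groups did not overlap, but counts were few, at 77 to 206 in lesioned and 0 to 55 in unlesioned libraries, and the 0 allows up to 3 counts. The gene hoxb7a had 10.7, 8.82, 17.2 and 19.8 RPKM in lesioned 1 to 4, against 10.5, 8.31, 6.92 and 9.86 RPKM in unlesioned 1 to 4 (log2 fold change 0.67 ± 0.35 SE, edgeR adjusted p = 0.522). Lesioned 3 and 4 stood well above all unlesioned libraries, while lesioned 1 and 2 were level with them. The copy hoxc6b averaged 12.98 ± 7.19 RPKM in lesioned and 4.71 ± 3.72 RPKM in unlesioned libraries, and hoxb5b 10.3 ± 3.46 RPKM in lesioned and 7.79 ± 1.05 RPKM in unlesioned libraries. Paralog groups 5 to 7 together, a set chosen after its values were seen, had 53.7, 60.4, 67.6 and 49.3 RPKM in lesioned 1 to 4, against 38.0, 40.9, 23.7 and 29.1 RPKM in unlesioned 1 to 4. The remaining middle groups, 4 and 8, had 19.1 ± 5.34 RPKM in lesioned and 26.0 ± 21.8 RPKM in unlesioned libraries, with overlap, and the log2 fold changes of the group 4 genes were -0.11 ± 1.00 for hoxb4a, -0.48 ± 0.86 for hoxc4a and -0.74 ± 1.05 for hoxd4a. The genes hoxc6a and hoxb7a were also picked after their values were seen. Group 8 went with neither direction, since hoxb8a had 3.87 to 13.1 RPKM in lesioned libraries and 2.59 to 5.84 RPKM in unlesioned 1, 2 and 4, but 34.9 RPKM in unlesioned 3. Unlesioned 3 was likewise the highest library for hoxd4a, with 7.36 RPKM against 0.526 to 0.676 RPKM in the other unlesioned and 0.390 to 2.75 RPKM in the lesioned libraries.

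Counts of the tail-end genes hoxb13a, hoxc13b and hoxc12b came mainly from unlesioned libraries. The gene hoxb13a had 0, 5, 0 and 0 counts in lesioned 1 to 4, against 58, 544, 0 and 115 counts in unlesioned 1 to 4. The gene hoxc13b had 1, 6, 72 and 0 counts in lesioned 1 to 4, against 108, 190, 308 and 3 counts in unlesioned 1 to 4 (log2 fold change -3.07 ± 1.63 SE, edgeR adjusted p = 0.529). The gene hoxc12b had 2 counts in lesioned 4 alone, against 47 in unlesioned 2 and 87 in unlesioned 3. In each case at least 1 unlesioned library was at or near 0, so the groups overlapped. Unlesioned 2, the library with the most hoxb13a, was also the only one with eve1, a posterior body gene beside the hoxba cluster (5.23 CPM, listed at 0 elsewhere). It had the highest sum of neural progenitor and glial markers as well, at 288 CPM against 33.9 to 160 CPM in the other unlesioned and 27.7 to 55.3 CPM in the lesioned libraries, with 134 CPM of the astroglial gene gfap. In the other unlesioned libraries these values did not go together. Unlesioned 3, at 160 CPM of these markers, had 0 hoxb13a counts, and unlesioned 1 and 4, at 33.9 and 54.5 CPM, had 58 and 115. The part of these cells in the hoxb13a counts was not tested. At the other end, hoxb1a had 14, 11, 1 and 0 counts in lesioned 1 to 4, against 0, 0, 0 and 7 counts in unlesioned 1 to 4.

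In lesioned 4, genes of the fin fold were high together with hoxa11b and hoxa13b. The other group 11 to 13 genes of the A and D clusters were not high there. Of all libraries, hoxd11a (14.6 RPKM) and hoxd12a (8.65 RPKM) were lowest in lesioned 4. In that library hoxd13a, hoxa11a and hoxa13a had 2.89, 3.60 and 16.9 RPKM. The actinodin genes and1 and and2 encode structural proteins of the fibres that stiffen the larval fin fold. The gene and2 had 1969, 2652, 610 and 8784 CPM in lesioned 1 to 4, against 2962, 1550, 2482 and 2353 CPM in unlesioned 1 to 4 (log2 fold change 0.58 ± 0.63 SE, edgeR adjusted p = 0.813). The gene and1 had 869, 1293, 278 and 4817 CPM in lesioned 1 to 4, against 1404, 783, 2201 and 960 CPM in unlesioned 1 to 4. Both were highest in lesioned 4, the library with the most hoxa13b and hoxa11b and the highest mean paralog number, and both were lowest in lesioned 3. In the other libraries they did not go together: unlesioned 3 had the second highest and1 but the lowest hoxa11b (26.8 RPKM), and hoxa13b was lowest in lesioned 1 (27.8 RPKM). Without lesioned 4 the log2 fold change of and2 was -0.42 and that of hoxa13b -0.47. The part of fin fold cells in these values was not tested. The gene hand2, a transcription factor of the lateral plate mesoderm, had 270, 201, 280 and 131 CPM in lesioned 1 to 4, against 576, 423, 453 and 1098 CPM in unlesioned 1 to 4, without overlap (log2 fold change -1.53 ± 0.36 SE, edgeR adjusted p = 0.168, 0.00518 in DESeq2). Of 10 tested genes of the pectoral fin and lateral plate list, hand2 was the only one with an unadjusted p under 0.05 (lower in 5.48% of all genes), and the list's median log2 fold change was 0.16. The fin and limb mesenchyme gene prrx1b had 64.4 ± 15.3 CPM in lesioned and 86.8 ± 41.8 CPM in unlesioned libraries.

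**Figure D5:**
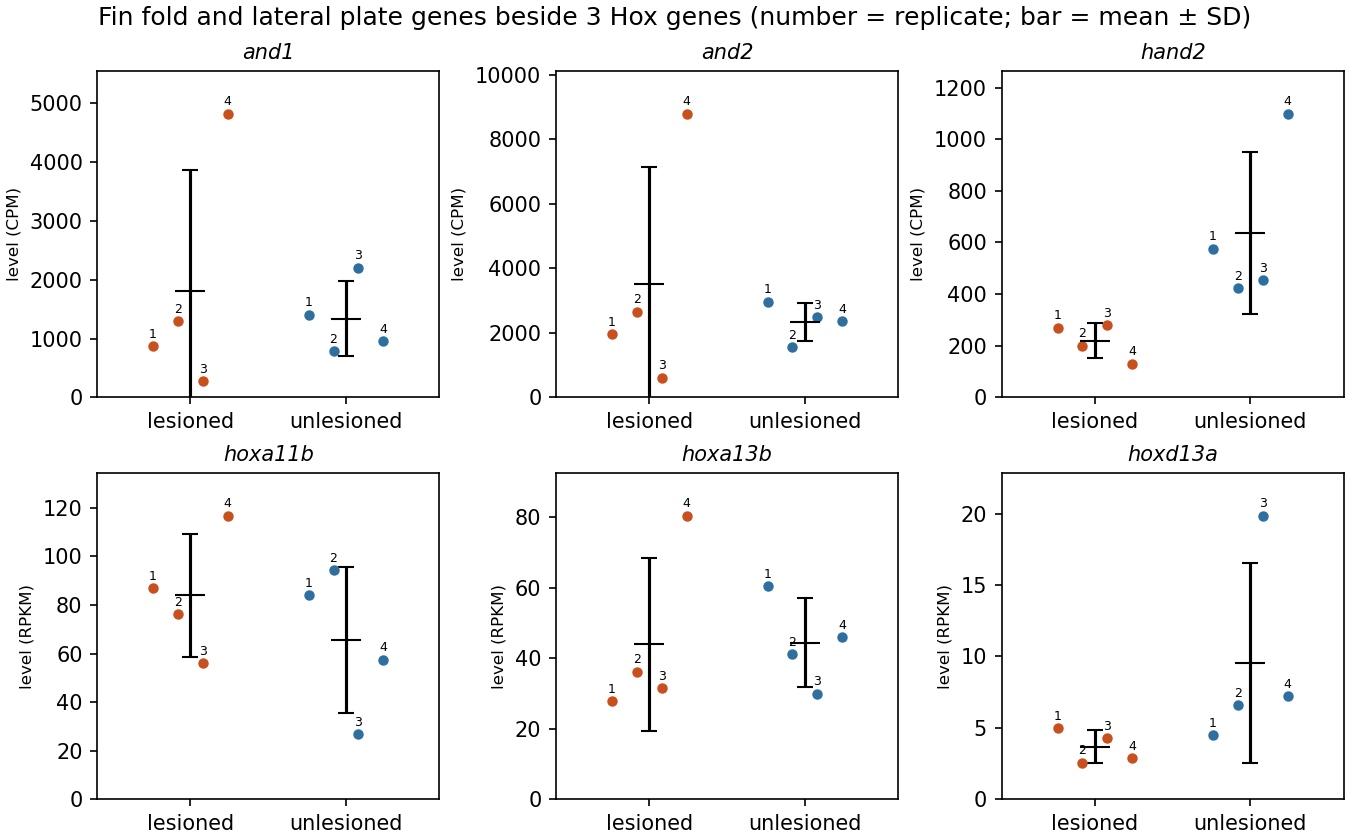
Levels in each library of the fin fold genes and1 and and2 and the lateral plate gene hand2 (CPM, top) and of hoxa11b, hoxa13b and hoxd13a (RPKM, bottom), lesioned left and unlesioned right; numbers are replicates and bars the mean ± SD of 4 libraries, with lower bars of and1 and and2 ending at the axis. Lesioned 4 is the highest library for and1, and2, hoxa11b and hoxa13b, and unlesioned 3 for hoxd13a.

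Proteins that bind DNA together with Hox factors were also looked at, through a list of Pbx, Meis and related cofactor genes. Of 12 tested, edgeR called 0, and 2 were lower at an unadjusted p under 0.05 (5.48% of all genes), or 4 with the replicate number as a block (7.12% of all genes), with none higher, with a median log2 fold change of -0.56. The gene meis2b had 9.35, 24.6, 9.68 and 4.79 CPM in lesioned 1 to 4, against 41.9, 20.9, 39.5 and 29.5 CPM in unlesioned 1 to 4 (log2 fold change -1.45 ± 0.49 SE, edgeR adjusted p = 0.274). Its groups overlapped through lesioned 2. The gene pbx3b had 102, 118, 44.7 and 43.5 CPM in lesioned 1 to 4, against 223, 258, 54.3 and 248 CPM in unlesioned 1 to 4 (log2 fold change -1.34 ± 0.50 SE, edgeR adjusted p = 0.323). Here unlesioned 3 was the only unlesioned library in the lesioned range. The most abundant gene of the list, the homeodomain repressor tgif1, averaged 296 ± 171 CPM in lesioned and 397 ± 122 CPM in unlesioned libraries.

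Genes that keep Hox clusters silent or active were taken as a list of 43 Polycomb, Trithorax and related chromatin genes, of which 41 were tested. None was called by edgeR, 5 were lower and 2 higher at an unadjusted p under 0.05 (5.48% and 6.07% of all genes), and the median log2 fold change was -0.06. The 5 lower ones were cbx8a, phc2b, cbx8b, phc2a and kdm6bb, of which the first 4 encode subunits of Polycomb repressive complex 1 and kdm6bb a demethylase that removes the Polycomb mark. The gene cbx8a had 22.0, 27.7, 29.0 and 29.7 CPM in lesioned 1 to 4, against 39.0, 52.6, 68.7 and 67.7 CPM in unlesioned 1 to 4, without overlap (log2 fold change -1.07 ± 0.26 SE, edgeR adjusted p = 0.169, 0.0125 in DESeq2). The gene phc2b had 34.8, 38.6, 66.7 and 31.3 CPM in lesioned 1 to 4, against 65.3, 94.9, 116 and 107 CPM in unlesioned 1 to 4 (log2 fold change -1.16 ± 0.30 SE, edgeR adjusted p = 0.193, 0.0230 in DESeq2). Lesioned 3 just exceeded unlesioned 1. The 2 higher ones were phc1, another subunit of the same complex, with 34.9 ± 18.2 CPM in lesioned and 12.7 ± 4.21 CPM in unlesioned libraries, and the Trithorax-type cofactor wdr5, with 80.2 ± 12.3 CPM in lesioned and 55.8 ± 8.96 CPM in unlesioned libraries. The most abundant gene of the list, cbx7a, averaged 402 ± 278 CPM in lesioned and 763 ± 384 CPM in unlesioned libraries (log2 fold change -0.92 ± 0.47 SE). That value was -0.51 without unlesioned 3 and -1.52 without lesioned 3.

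Most genes that set the posterior code in the embryo were low or not tested. Of 18 listed regulators, among them Cdx factors and the retinoic acid enzymes, 9 were tested, 0 had an unadjusted p under 0.05 and the median log2 fold change was 0.04. The retinoic acid producing enzyme aldh1a2 was the most abundant, at 127 ± 9.35 CPM in lesioned and 124 ± 63.6 CPM in unlesioned libraries. The T-box gene tbx16 had 3.49 ± 2.22 CPM in lesioned and 1.52 ± 0.949 CPM in unlesioned libraries, and the nuclear receptor gene nr6a1b 3.35 ± 2.27 CPM in lesioned and 6.21 ± 4.08 CPM in unlesioned libraries. Of 15 tested genes next to the Hox clusters, 1 was lower (snx10a, log2 fold change -2.28) and 1 higher (hibadhb, 0.59) at an unadjusted p under 0.05 (5.48% and 6.07% of all genes), with a median of -0.08.

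Markers of other axial levels and tissues were set beside the code. Of 23 genes listed as head markers, 10 were tested, with a median log2 fold change of -0.09. Only 1 of them, alx4a, was higher at an unadjusted p under 0.05 (6.07% of all genes). This gene had 17.7 ± 14.5 CPM in lesioned and 6.16 ± 2.58 CPM in unlesioned libraries. Its log2 fold change of 1.52 ± 0.59 was 0.77 without lesioned 4, which had 39.1 CPM. The forebrain and midbrain genes of the Otx, Emx and Six3 families reached at most 14.3 CPM in lesioned and 10.3 CPM in unlesioned libraries, both for emx1 and both in replicate 3. The most abundant gene of that list, en1b, averaged 76.7 ± 34.8 CPM in lesioned and 57.3 ± 10.9 CPM in unlesioned libraries, and it is also known from somites and muscle. Of 19 tested genes of the paraxial mesoderm, the source of the myoseptal cells, 1 was higher and 1 lower at an unadjusted p under 0.05 (6.07% and 5.48% of all genes), with a median of -0.33. The tendon factor scxa was higher, with 54.0, 81.9, 48.5 and 40.7 CPM in lesioned 1 to 4, against 29.1, 40.2, 37.2 and 22.0 CPM in unlesioned 1 to 4, without overlap (log2 fold change 0.81 ± 0.30 SE, edgeR adjusted p = 0.317). The mesenchymal factor twist2 was lower, with 33.2 ± 12.7 CPM in lesioned and 61.9 ± 20.01 CPM in unlesioned libraries (log2 fold change -0.90 ± 0.36 SE, edgeR adjusted p = 0.366). The somite gene meox1, the most abundant of that list, had 216 ± 24.7 CPM in lesioned and 232 ± 104 CPM in unlesioned libraries.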

How the data were processed

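Full-length cDNA of sorted cells was sequenced in 8 libraries, grouped by their titles. Per the submitters' processing notes, the authors used bcl2fastq 2.19.1, GSNAP on GRCz11 and featureCounts 1.6.2. The header of the deposited count table names featureCounts 1.6.3, Ensembl 92, no strand (-s 0) and a minimum mapping quality of 1. The deposited values are raw read counts per gene, without normalization. The 92 spike-in entries were left out.

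The identifiers were named from a reference table. Of the 48 Hox genes, 15 carried a zebrafish symbol and 33 a symbol in capitals, resolved by chromosome against RefSeq. That step was checked on 2351 known paralogs, of which 2215 came back right, 0 wrong and 136 unresolved. RefSeq sequences of the members were not used here.

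The comparison of lesioned with unlesioned libraries used edgeR 4.0.16 (R 4.3.3) with TMM factors, filterByExpr and a robust quasi-likelihood F-test, two-sided, over 15759 genes with Benjamini-Hochberg adjustment, called under 0.05. The procedure was tested on simulated data. Levels are CPM on the TMM-scaled total, and RPKM divide these by the featureCounts exon length. Groups do not overlap where every library of one lies on one side of every library of the other. The common dispersion of 0.561 (biological coefficient of variation 74.9%) limits precision more than depth, and a floor of 3 counts covers counting error only. Members and gene lists were chosen with earlier results of these data known. Values in every library are given for the 6 members with the highest level and the 8 with the lowest p, and for lists the 2 genes of lowest p and the most abundant one are named; other names were chosen after their values were seen.

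Same-numbered libraries of the groups deviated together (correlations 0.192, 0.182, 0.232 and 0.154, each over the limit of 0.1), so the numbers were taken as pairs. The pairing comes from the data, and lesioned 1 and unlesioned 2 correlated best with each other. The rule cannot show pairing by number, since libraries of the same set (1 and 2, or 3 and 4) could also deviate together. The main edgeR fit used the group alone, without the pairs. Alternatives were the replicate block, a term for libraries 1 and 2 against 3 and 4, each set alone, each library left out, other scalings and filters, DESeq2 1.42.0 and limma 3.58.1 voom.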

Additional observations from a re-analysis of the deposited data

Results flagged for a closer look

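In 36 groups of 4 libraries, 5 had a library far from the other 3 by Dixon's test, and chance flags about 1 in 20 groups. The 5 were all lesioned. The gene hoxa10b was high in lesioned 3 (52.7 RPKM), hoxa13b in lesioned 4 (80.4 RPKM), hoxc6a in lesioned 3 (12.2 RPKM) and hoxd10a in lesioned 2 (19.0 RPKM). The mean paralog number was high in lesioned 4 (9.63). Synthetic spike-in RNAs, outside the gene counts, had 86 counts in lesioned 3, 64 in lesioned 4, 158 in unlesioned 3 and 87 in unlesioned 4, above the 3 counts that a 0 allows.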

How the results depend on the processing

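With the replicate number as a block, edgeR called 0 Hox genes, and 9 were lower at an unadjusted p under 0.05 (7.12% of all genes). At that level 4 cofactors were lower, or 5 with the term for libraries 1 and 2 against 3 and 4 (1038 of 15759 genes). With the block meox1 turned to a log2 fold change of 0.020, and the block changed no Hox call at an adjusted p under 0.05. Of all genes, 2 were called higher and 0 lower with the block, against 3 and 0 in the main fit. At an unadjusted p under 0.05, hoxa3a and hoxc10a dropped out with the block and hoxc13b came in. DESeq2 called 2 Hox genes lower and 3 chromatin genes. Among the 8077 genes with an adjusted p it called 275 higher and 242 lower. Hox genes lower at an unadjusted p under 0.05 numbered 0 in libraries 3 and 4 alone (2.03% of all genes) and 4 with library size only (3.33%). They numbered 6 without the 5 genes whose models run across another (5.48% of all genes). With 1 library left out they numbered 4 to 10, against 652 to 1025 of all 15759 genes. One was higher in libraries 1 and 2 alone, without unlesioned 3 and lesioned 4 together and in limma voom. Of all 15759 genes, 1162, 938 and 1215 were higher in the same order. With 1 library left out 0 to 1 Hox genes were higher, against 736 to 1108 of all genes. The last pair of libraries and the 5 genes were chosen after seeing the data.

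For hoxa11b the log2 fold change turned to -0.13 in libraries 1 and 2 alone and -0.10 without unlesioned 3 and lesioned 4 together. For hoxa13b it turned to 0.64 in libraries 3 and 4 alone, 0.15 with library size only and 0.039 with no filter, and ran from -0.47 to 0.19 with 1 library left out. In libraries 3 and 4 alone aldh1a2 turned to -0.13 and prrx1b to 0.24. With 1 library left out aldh1a2 ran from -0.12 to 0.46, and2 from -0.42 to 0.94 and meox1 from -0.34 to 0.16. Without unlesioned 3 and lesioned 4 together aldh1a2 was at -0.17, and2 at -0.39 and meox1 at 0.20. The gene meox1 was at 0.093 with library size only, 0.024 in limma voom and 0.067 with its quality weights.

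The mean paralog number was 8.64 in lesioned and 8.40 in unlesioned libraries from CPM (difference 0.23), 7.41 in lesioned and 7.77 in unlesioned ones with each member of at least 10 counts counted once (difference -0.36), 8.93 in lesioned and 9.08 in unlesioned ones without the most abundant member, and 9.63 in lesioned and 9.82 in unlesioned ones without the 5 genes. Libraries 1 and 2 alone gave a difference of -0.24 and libraries 3 and 4 alone one of 0.19, and the unlesioned value was 9.36 without members that share over 10% of exon bases. The posterior share was 71.8% in lesioned and 70.5% in unlesioned libraries from CPM (difference 1.33), 46.9% in lesioned and 51.2% in unlesioned ones with members counted once, 75.3% in lesioned and 79.7% in unlesioned ones without the most abundant member, and 83.7% in lesioned and 88.6% in unlesioned ones without the 5 genes. The log2 difference of the anterior sum was 0.12 with members counted once and -0.37 without the 5 genes. That of the posterior sum was -0.19 with library size only, -0.12 with members counted once, -0.56 from libraries 1 and 2 alone and -0.15 from libraries 3 and 4 alone. Members with at least 10 counts averaged 43.2 in lesioned and 43.0 in unlesioned libraries, and 44.8 were detected in lesioned libraries scaled to the smallest library. The causes were not tested. The filter of 10 counts in 4 libraries kept 15830 genes, more than the main one.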
